A study of Homo sapiens with 12 samples.

Results

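The genes described here encode the enzymes that turn prohormones into mature peptides: PCSK1, PCSK2, CPE, CPD, PAM, FURIN, PCSK5, PCSK6 and QPCT. They were chosen by name, and all 9 were found among the 35337 genes of the expression table. Their mRNA was measured by CEL-seq, a method that sequences transcripts from their 3′ ends, in 12 samples of EndoC-βH3 cells. EndoC-βH3 is 1 human beta-like cell line made from fetal pancreas, whose proliferation is driven by added genes for hTERT and the SV40 large T antigen. A recombinase activated by tamoxifen, CreER, can excise them, and cells of both groups carry it. The 6 senescent samples had been treated for 3 weeks with 4-hydroxy tamoxifen, which activates CreER, and the 6 non-senescent samples were controls. The labels give both groups the genotype WT and the cell type pancreatic beta cells. Batch A, taken from the letter in the sample names, comprised 2 senescent and 2 non-senescent samples, batch B 4 and 4.

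Peptide hormones are made as long precursors. In the endoplasmic reticulum and Golgi the precursor enters the regulated secretory pathway, and in the acidifying secretory granule the convertases PCSK1 (PC1/3) and PCSK2 (PC2) cut it after pairs of basic residues. The carboxypeptidase CPE then removes the basic residues left at the new end, PAM amidates peptides that end in glycine, and QPCT turns an N-terminal glutamine into pyroglutamate. FURIN, PCSK5 and PCSK6 are related convertases with broader substrates that act mainly in the trans-Golgi network, at the cell surface or outside the cell, and CPD is the carboxypeptidase of the trans-Golgi network. In beta cells, PCSK1, PCSK2 and CPE make insulin and C-peptide from proinsulin, and an excess of proinsulin is the known result when one of them is lacking.

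The promoters of PCSK1, PCSK2 and CPE, the enzymes that process proinsulin, are shown because the results turn on the opposite directions of PCSK1 on one side and of PCSK2 and CPE on the other. The sequences are RefSeq's (GRCh38.p14), 250 bases up to the transcript start and 5′ to 3′ on the strand of the gene. Those of PCSK1 and PCSK2 are the first of 2 starts listed for each gene. PCSK1 lies at chr5:96433249-96433498 on the minus strand, PCSK2 at chr20:17225857-17226106 on the plus strand and CPE at chr4:165378758-165379007 on the plus strand. Capitals mark the cAMP response element TGACGTCA, its first letters TGACG, and the core TGCTGAC of the MAF recognition element, all searched on both strands.
PCSK1: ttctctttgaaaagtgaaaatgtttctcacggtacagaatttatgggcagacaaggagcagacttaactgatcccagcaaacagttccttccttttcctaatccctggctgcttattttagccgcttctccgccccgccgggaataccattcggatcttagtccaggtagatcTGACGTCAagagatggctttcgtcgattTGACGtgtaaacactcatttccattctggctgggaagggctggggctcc
PCSK2: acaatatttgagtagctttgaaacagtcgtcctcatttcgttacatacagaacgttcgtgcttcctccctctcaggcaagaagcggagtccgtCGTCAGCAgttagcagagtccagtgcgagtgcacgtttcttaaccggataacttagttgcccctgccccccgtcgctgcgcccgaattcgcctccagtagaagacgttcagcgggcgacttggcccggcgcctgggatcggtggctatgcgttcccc
CPE: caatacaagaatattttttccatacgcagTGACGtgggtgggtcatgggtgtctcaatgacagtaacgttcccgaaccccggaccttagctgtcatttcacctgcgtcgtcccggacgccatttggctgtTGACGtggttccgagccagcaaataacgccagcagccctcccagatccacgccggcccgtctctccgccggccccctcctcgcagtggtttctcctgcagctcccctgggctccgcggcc
Within these windows, PCSK1 held the complete TGACGTCA with its first base 77 bases before the start, and a further TGACG 49 bases before it. PCSK2 held TGACG on the reverse strand from 157 bases before the start, and it overlapped a TGCTGAC on the same strand. CPE held TGACG at 221 and at 120 bases before the start. Over the 35116 promoter entries of 300 bases in RefSeq, 1.85% held TGACGTCA, 24.6% held TGACG and 4.19% held TGCTGAC. Among the 17 entries of the processing enzymes, 1 held TGACGTCA, 7 held TGACG and 1 held TGCTGAC. A match describes the letters only.

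Sequencing depth was 8873569 to 17106776 reads per library in batch A and 4672924 to 7063264 in batch B, so that a gene with no read may still make up 0.175 to 0.642 ppm of the reads. The processing enzymes together took 0.172% to 0.177% of the non-senescent reads against 0.200% to 0.206% of the senescent reads in batch A, and 0.283% to 0.372% against 0.406% to 0.432% in batch B. PCSK2 gave 61.9% to 89.9% of these reads. As a check of the labels, the cell cycle inhibitor CDKN1A was higher in senescent cells by 3.92 on the log2 scale and the proliferation marker MKI67 was lower, with a log2 fold change of -2.83. CDKN1A rose by 2.18 within A and 4.78 within B, and MKI67 changed by -3.45 within A and -2.51 within B. Both responses differed in size between the batches (limma interaction of batch and group, adjusted p = 0.00191 and 0.022). TERT was higher in senescent cells by 0.28 (adjusted p = 0.107), by 0.65 within A and 0.09 within B, so it did not show the excision. These reads do not tell the introduced hTERT from the gene of the genome. All 15 beta-cell markers were detected, and their summed level was 6030–8324 ppm in non-senescent and 11097–27486 ppm in senescent cells. INS carried this difference: without it the other 14 summed to 3387–4586 and 3966–4508 ppm. By the limits given below, 5 beta-cell markers were higher (INS, IAPP, PDX1, MAFA and G6PC2), 1 was lower (UCN3) and 9 were not called. Of all tested genes 11.6% were higher and 11.8% were lower. The alpha-cell and delta-cell hormones GCG and SST were expressed too. Their marker lists stood at 7219–17460 and 23200–40501 ppm in non-senescent and at 20868–30970 and 15001–18929 ppm in senescent cells, with all 5 and all 3 markers detected. In non-senescent cells SST lay above INS, at a mean of 206100 against 19850 normalised read counts. In senescent cells SST was at 117500 against 176700 for INS in batch A, and at 134300 against 60950 in batch B. By the same limits the alpha-cell markers split: TTR and LOXL4 were higher, GCG was lower and 2 were not called. The delta-cell markers SST, HHEX and LEPR were all lower. Of the 6 acinar, 5 duct and 6 mesenchymal markers, 1, 1 and 2 reached a mean of 5, and 3 of the 4 blood and endothelial markers did. Acinar markers summed to 4.77–8.18 ppm in non-senescent against 18.8–34.3 in senescent cells, and duct markers to 35.0–54.8 and 10.3–21.8. Mesenchymal markers summed to 1.24–18.4 and 1.46–7.07 and blood and endothelial ones to 3.38–8.70 and 2.34–7.07, with PDGFRB and VWF at 0 in all libraries. The part of these cell states in the results below was not tested, and in RNA of whole cultures fewer cells of a kind and less RNA per cell cannot be told apart.

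The expression of the processing enzymes changed in opposite directions upon senescence. PCSK1 and PCSK5 were lower in senescent cells, CPE and PAM were higher, and PCSK2, CPD and FURIN passed the p limit with rises under the 1.5-fold limit. PCSK6 and QPCT did not pass the test. Levels are given as normalised read counts, the read number of a gene divided by a size factor for its library. Groups were compared with limma on log2(normalised read count + 1) with batch in the model, and a gene was called higher or lower at a Benjamini-Hochberg adjusted p under 0.1 over 13847 tested genes and a fold change over 1.5. By these limits 2 of the 9 enzymes were higher and 2 were lower, while 11.6% of all tested genes were higher and 11.8% were lower. With no limit on the fold change 7 of the 9 enzymes passed, against 45.5% of all tested genes. The median log2 fold change was 0.46 over the 9 enzymes and 0.01 over all tested genes. The labels do not say whether replicates came from separate cultures, so the p-values measure the spread between these samples, which may be technical.

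**Figure D1:**
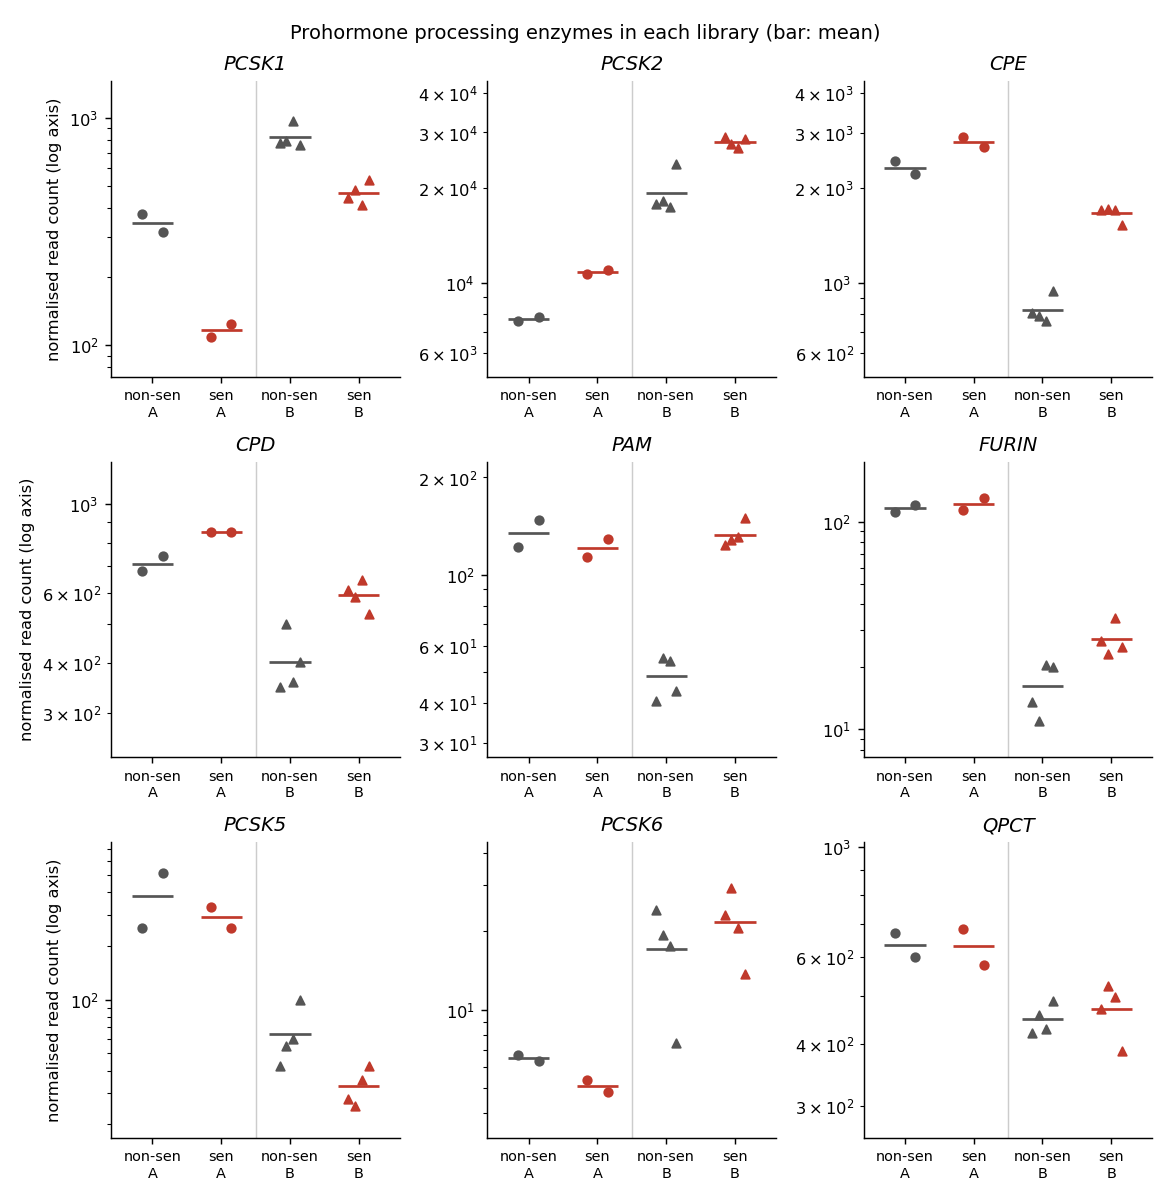
Normalised read counts (log axis) of the 9 processing enzymes in each library, non-senescent in grey and senescent in red, with batch A as circles on the left and batch B as triangles on the right of each panel and the group mean as a bar. PCSK1 lies lower and PCSK2, CPE and CPD lie higher in every senescent library than in the non-senescent libraries of the same batch.

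PCSK1, the convertase that opens most prohormones first, stood at 376 and 314 normalised read counts in the non-senescent samples of batch A and at 109 and 124 in the senescent ones. In batch B it stood at 769, 787, 964 and 754 in non-senescent and at 445, 481, 413 and 531 in senescent samples. The groups did not overlap in either batch, and all senescent values of batch B were above both non-senescent values of batch A. PCSK1 mRNA thus fell to 0.481-fold upon senescence (log2 fold change -1.06 ± 0.12, here and below with its SE, adjusted p = 3.469e-06). The fall was larger in batch A (-1.55) than in batch B (-0.81), and this difference of 0.74 passed its own test, the interaction of batch and group (adjusted p = 0.0533), but not when any 1 of the 4 libraries of batch A was left out. PCSK1 spans positions 96390333 to 96434143 of chromosome 5 on the minus strand (GENCODE v44, GRCh38). A long noncoding RNA on the opposite strand overlaps its 3′ end, where CEL-seq reads fall, and whether the counting used strand is not given in the sources used here.

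PCSK2, which completes the processing of proinsulin and makes glucagon in alpha cells, moved the other way. It stood at 7564 and 7791 normalised read counts in non-senescent and at 10674 and 10971 in senescent samples of batch A. In batch B it stood at 17775, 18229, 17465 and 23818 in non-senescent and at 29118, 27581, 26747 and 28652 in senescent samples. Each senescent value was above each non-senescent value of its batch, and the non-senescent sample B4 lay apart from the other 3 of its group. The rise was 1.44-fold, or 0.53 ± 0.07 as log2 fold change (adjusted p = 1.836e-05), and was alike in size in A (0.50) and B (0.55). PCSK2 therefore passed the p limit but not the fold limit, which it passed without the non-senescent sample B4 (0.59). The gene lies on chromosome 20 from 17226107 to 17484578 on the plus strand.

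Each of the convertases has a binding partner in the granule, and both partners rose. PCSK1N (proSAAS), a granin-like protein whose peptides inhibit PCSK1, stood at 19923 and 17321 normalised read counts in non-senescent and at 41441 and 40466 in senescent samples of batch A. In batch B it ranged from 10384 to 12185 in non-senescent and from 26507 to 29059 in senescent samples. Its log2 fold change was 1.23 ± 0.06 (adjusted p = 1.163e-10), a 2.35-fold rise, and each batch showed it (1.14 in A, 1.28 in B). The inhibitor of PCSK1 was thus higher, and PCSK1 lower, in each senescent library than in the non-senescent libraries of its batch. SCG5 (7B2), the chaperone that PCSK2 needs to become active, stood at 3309 and 3705 against 4418 and 4490 in batch A, and at 1214 to 1338 against 2349 to 2687 in batch B. SCG5 rose 1.72-fold, with 0.79 ± 0.10 as log2 fold change (adjusted p = 5.367e-06), and rose less in A (0.35) than in B (1.01, interaction adjusted p = 0.00737).

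CPE, the granule carboxypeptidase, was higher in senescent cells of both batches, though by different amounts. In batch A it stood at 2439 and 2217 normalised read counts in non-senescent and at 2917 and 2695 in senescent samples. In batch B the non-senescent samples stood at 803, 789, 758 and 945 and the senescent ones at 1711, 1725, 1713 and 1536. The groups did not overlap in either batch, but all non-senescent samples of batch A lay above all senescent samples of batch B. The log2 fold change was 0.77 ± 0.11 (adjusted p = 2.732e-05), a 1.71-fold rise. Batch A gave 0.27 and batch B gave 1.02, and their difference of 0.75 passed the interaction test (adjusted p = 0.00797). CPE lies on chromosome 4 from 165361194 to 165498547 on the plus strand.

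CPD, the carboxypeptidase of the trans-Golgi network, followed CPE with a smaller change. It stood at 677 and 740 in non-senescent and at 850 and 848 in senescent samples of batch A, and at 349, 500, 359 and 403 against 611, 584, 643 and 531 in batch B. The groups were separate in both batches. The log2 fold change of 0.46 ± 0.10 (adjusted p = 0.000972), a 1.38-fold rise, remained under the fold limit (0.26 in A, 0.57 in B). CPD lies on chromosome 17 from 30378927 to 30469989 on the plus strand.

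PAM, the only enzyme known to amidate peptides in humans, had the response that differed most between the batches. In batch A it stood at 122 and 148 normalised read counts in non-senescent and at 114 and 129 in senescent samples, which overlapped. In batch B it stood at 40.7, 55.1, 54.1 and 43.5 in non-senescent and at 124, 128, 130.5 and 149.5 in senescent samples, which were far apart. The senescent samples of both batches therefore overlapped, and the non-senescent ones did not. The pooled log2 fold change was 0.92 ± 0.22 (adjusted p = 0.00332), but batch A alone gave -0.15, with a 95% interval from -0.61 to 0.31, and batch B gave 1.45, with an interval from 1.12 to 1.77. The difference of 1.60 passed the interaction test (adjusted p = 0.00425), so the rise of PAM rests on batch B. PAM lies on chromosome 5 from 102753981 to 103029730 on the plus strand, and its 21 annotated 3′ ends of coding transcripts were counted together.

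QPCT, the glutaminyl cyclase, stood at 672 and 598 in non-senescent and at 684 and 578 in senescent samples of batch A. It stood at 420.1, 457, 430 and 488 against 471, 525, 498 and 387 in batch B, and the groups overlapped in both. The log2 fold change was 0.04 ± 0.09 (adjusted p = 0.779) with a 95% interval from -0.15 to 0.22, which lies within the 1.5-fold limit on both sides. QPCT lies on chromosome 2 from 37342827 to 37373322 on the plus strand.

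Among the convertases of broader substrate range, PCSK5 was the one called. It activates growth factors and other secreted proteins. It stood at 251 and 511 normalised read counts in non-senescent and at 332 and 252 in senescent samples of batch A. In batch B it stood at 42.2, 55.1, 59.9 and 99.4 in non-senescent and at 27.9, 25.2, 35.5 and 42.3 in senescent samples. The groups overlapped in both batches, in batch B by the highest senescent and the lowest non-senescent value. The log2 fold change was -0.71 ± 0.22 (adjusted p = 0.0187), -0.31 within A and -0.91 within B. Without the non-senescent sample B4, the highest non-senescent sample of batch B, the change was -0.54 and no longer passed the fold limit. PCSK5 lies on chromosome 9 from 75890644 to 76362975 on the plus strand.

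FURIN, the convertase of the constitutive secretory pathway, stood at 112 and 121 in non-senescent and at 114 and 130 in senescent samples of batch A. In batch B it was low, at 13.6, 11.01, 20.5 and 19.9 in non-senescent and at 26.7, 23.1, 34.3 and 24.9 in senescent samples, which rested on 8 to 16 and on 20 to 30 reads per library. The groups overlapped in batch A and were separate in batch B. The log2 fold change was 0.51 ± 0.21 (adjusted p = 0.0585), under the fold limit, and close to 0 in A (0.06) but not in B (0.74). Both limits were passed without the non-senescent sample A2 (0.59) and without the senescent sample A1 (0.60). FURIN lies on chromosome 15 from 90868588 to 90883564 on the plus strand.

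PCSK6 (PACE4), which activates ligands of the TGF-β family outside the cell, rested on 6 to 28 reads per library. It stood at 6.67 and 6.36 in non-senescent and at 5.39 and 4.83 in senescent samples of batch A, and at 24.1, 19.3, 17.5 and 7.46 against 23.0, 29.4, 20.6 and 13.7 in batch B. The log2 fold change of 0.16 ± 0.31 (adjusted p = 0.732) had a 95% interval from -0.50 to 0.82, so that a rise of over 1.5-fold could not be told from no change at this depth. PCSK6 lies on chromosome 15 from 101289784 to 101525202 on the minus strand, and SNRPA1 on the same strand overlaps its 3′ end, so its reads are uncertain.

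**Figure D2:**
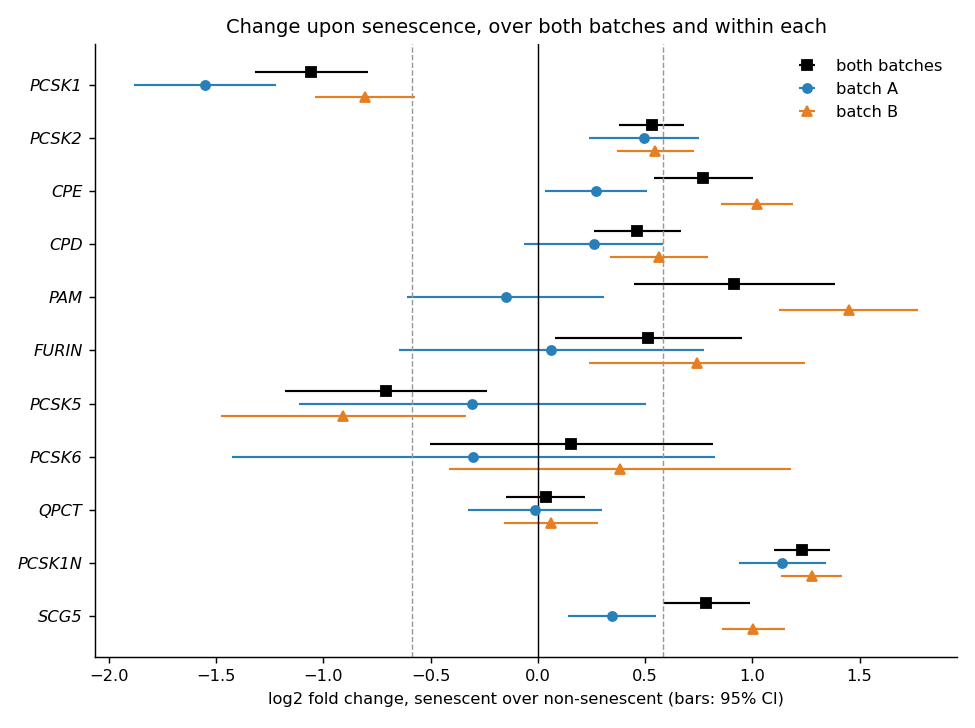
Log2 fold change of senescent over non-senescent cells for the 9 enzymes and the partners PCSK1N and SCG5, over both batches (black squares) and within batch A (blue circles) and batch B (orange triangles), with 95% confidence intervals as bars and the 1.5-fold limits as dashed lines. PCSK2 and PCSK1N have like values in both batches, while the values of PAM are -0.15 and 1.45.

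The batches differed in the levels of the enzymes as well as in their responses. The groups of 4 enzymes were separate in the same direction in both batches (PCSK1, PCSK2, CPE and CPD, against 23.8% of all tested genes). PAM and FURIN were separate in batch B alone, and PCSK5 and QPCT overlapped in both. PCSK6 was separate in batch A alone, where both groups held 12 and 8 reads, so only the size factors set them apart. The share of all tested genes separate in 1 batch alone was not determined, so separation in 1 batch is not read as a result about the enzymes. The interaction test was passed by 3 of the 9 enzymes (PCSK1, CPE and PAM), against 4.21% of all tested genes. Between the non-senescent samples of the batches, a comparison added after the values were seen, 8 of the 9 enzymes passed both limits, against 49.8% of all tested genes. PCSK2 was higher in batch B by 1.32 on the log2 scale, PCSK1 by 1.24 and PCSK6 by 1.16. FURIN was lower in batch B, with a log2 difference of -2.81, as were PCSK5 (-2.53), CPE (-1.50), PAM (-1.47) and CPD (-0.83). The exception was QPCT, whose difference of -0.50 remained under the fold limit. The cells used for the batches, their passage and their handling are not given in the sources used here, so culture and library preparation cannot be told apart.

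Because these differences between batches touch most levels, the enzymes were also compared with each other within a library, where the scaling between libraries plays no part. Ratios are of read numbers and not of levels per length, so only their changes are compared. For every 100 normalised reads of PCSK2 there were 4.97 and 4.03 of PCSK1 in the non-senescent samples of batch A and 4.33, 4.32, 5.52 and 3.17 in those of batch B. In senescent cells there were 1.02 and 1.13 in batch A and 1.53, 1.74, 1.54 and 1.85 in batch B. Unlike the levels of either gene, the ratio in non-senescent cells covered one range in both batches, and all 6 senescent values lay below all 6 non-senescent ones. PCSK1 relative to PCSK2 fell to 0.333-fold, with a log2 difference of -1.59 over both batches (-2.05 in A, -1.35 in B). An exact two-sided permutation test within batch gave p = 0.00476, the smallest value that its 420 arrangements allow, and 0.00556 after adjustment over 7 ratios. As PCSK1 lay lower and PCSK2 higher in each senescent library of its batch, the test could give no other value. Its p therefore restates the separation of the single genes, and the size of the change is what the ratio adds.

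The mRNA of insulin, the hormone of beta cells, rose more than that of any enzyme that processes it. INS rose 4.70-fold (log2 fold change 2.23 ± 0.11, adjusted p = 1.26e-10), by 2.54 within A and 2.08 within B. For every 100 normalised reads of INS there were 1.09 and 1.17 of PCSK1 in non-senescent against 0.0649 and 0.0671 in senescent samples of batch A, and 4.78 to 8.75 against 0.638 to 0.895 in batch B. PCSK1 relative to INS thus fell to 0.102-fold, PCSK2 relative to INS to 0.307-fold and CPE relative to INS to 0.363-fold. The log2 differences were -3.29, -1.70 and -1.46, all negative in both batches, and each had the same exact permutation p (adjusted p = 0.00556). For PCSK1 relative to INS this p was fixed in advance, as PCSK1 lay lower and INS higher in each senescent library of its batch. PCSK2 relative to INS ranged from 22.03 to 29.0 per 100 in non-senescent and from 5.91 to 6.36 in senescent samples of batch A, and from 110.4 to 162 against 41.3 to 58.6 in batch B. CPE relative to INS ranged from 7.10 to 8.25 against 1.45 to 1.74 in batch A and from 4.89 to 6.88 against 2.26 to 3.44 in batch B, with no overlap between groups over both batches.

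The inhibitor PCSK1N rose 4.88-fold relative to PCSK1. There were 53.0 and 55.2 normalised reads of PCSK1N for each of PCSK1 in non-senescent and 379.9 and 325 in senescent samples of batch A. In batch B there were 10.8 to 16.2 in non-senescent and 54.8 to 65.2 in senescent samples. The log2 difference was 2.29 (2.69 in A, 2.08 in B, exact permutation, adjusted p = 0.00556). Here too the separation of both single genes in each batch fixed the p in advance. FURIN relative to PCSK1 rose 2.97-fold with the same exact adjusted p, on the log2 scale by 1.62 in A and by 1.55 in B. SCG5 relative to PCSK2 changed less, with a log2 difference of 0.26 of opposite sign in A (-0.15) and B (0.46). It passed the exact permutation test (adjusted p = 0.0429), but not when any 1 of the 8 libraries of batch B was left out, for which the log2 difference lay between 0.19 and 0.26.

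**Figure D3:**
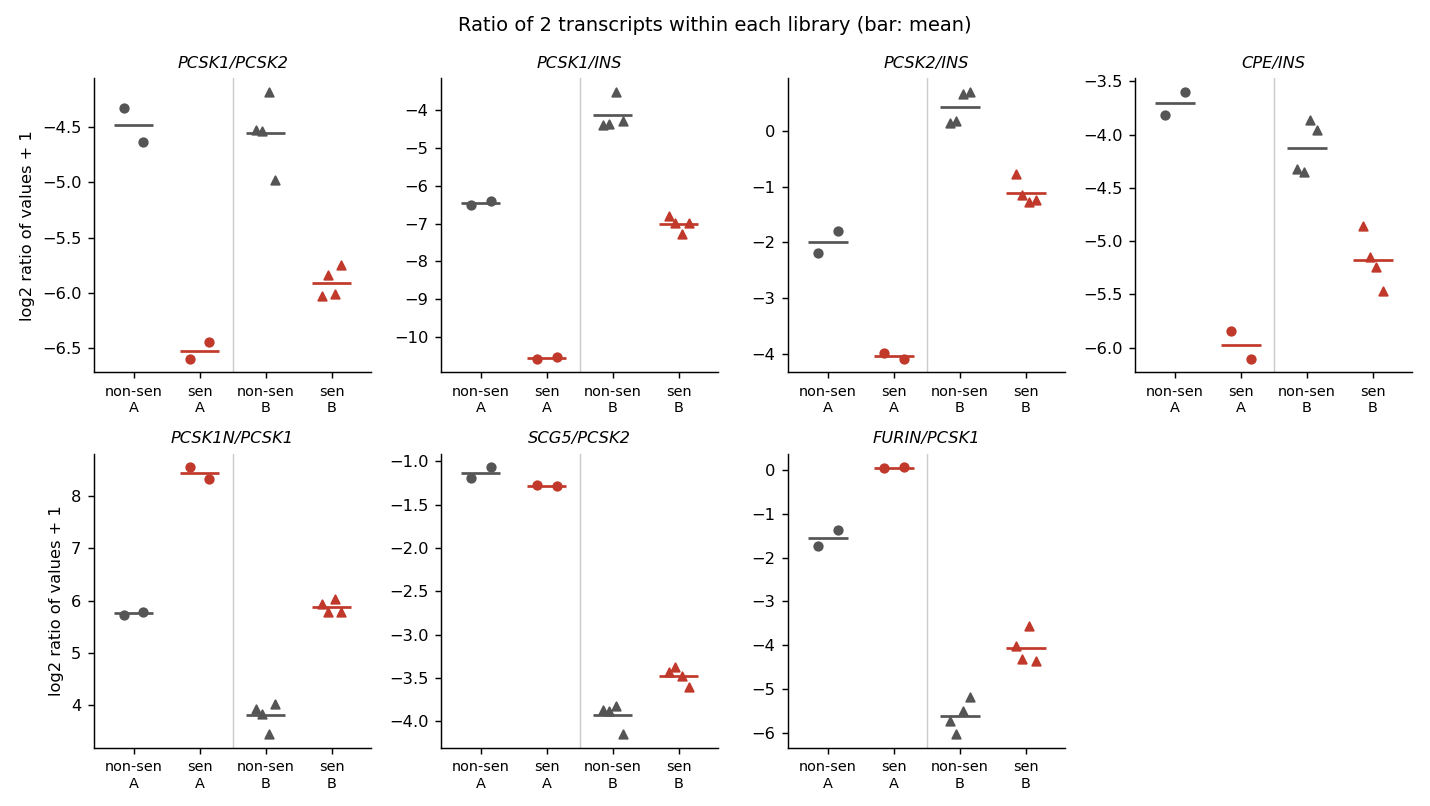
Log2 ratio of the values + 1 of a pair of genes within each library, non-senescent in grey and senescent in red, batch A as circles and batch B as triangles, with the group mean as a bar. PCSK1 relative to PCSK2 lies near one level in the non-senescent libraries of both batches and below it in all senescent ones, whereas SCG5 relative to PCSK2 moves in opposite directions in the batches.

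The other genes around prohormone processing were taken from 9 lists with 80 genes, of which 64 could be tested. By both limits 11 of the 64 were higher and 6 were lower, against 11.6% and 11.8% of all tested genes. The median log2 fold change was 0.13, against 0.01 over all tested genes. Of the other convertases, PCSK7 was at 0.07, MBTPS1 (site-1 protease, which activates SREBP and ATF6) rose by 0.54 under the fold limit (adjusted p = 2.784e-05), and PCSK4, at a mean of 1.94 normalised read counts, was not tested. Of the basic-residue carboxypeptidases and their relatives, 2 of 6 were tested: CPM was at 0.35 and did not pass the fold limit, and AEBP1, an extracellular matrix protein of this family, fell, with a log2 fold change of -2.41 (adjusted p = 0.00046). Of the partners and inhibitors PCSK1N and SCG5 rose, and SERPINB8, GBP2 and GBP5, which inhibit FURIN, were under the filter. The second glutaminyl cyclase, QPCTL, was at 0.20 (adjusted p = 0.593).

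The enzymes also depend on cofactors, acid pH and sorting. Of 45 tested genes in these and one further list of peptidases 5 were higher by both limits (11.1%), and 42.2% passed with no fold limit. These shares were near those of all tested genes (11.6% and 45.5%). By both limits 0 of the 45 were lower, against 11.8% of all tested genes. Among the 6 tested genes that supply copper and ascorbate to PAM, 1 rose, CYB561, the granule cytochrome that regenerates ascorbate, with a log2 fold change of 0.59 (adjusted p = 4.867e-05) just past the fold limit. Of the 16 subunits of the proton pump that acidifies the granule 1 rose, ATP6V0E1 with 0.64 (adjusted p = 1.547e-06), and the median was 0.04. With no fold limit 9 of the 16 passed, 6 upwards and 3 downwards. Of 15 tested genes for granule cargo sorting and the retrieval of convertases 2 rose, CCDC186 with 0.85 (adjusted p = 1.382e-05) and the SNARE VTI1B with 0.63 (adjusted p = 0.000401), and the median was 0.14. Of 8 tested other peptidases 1 rose, the surface peptidase DPP4, which cuts incretins, with 1.40 (adjusted p = 0.00139).

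The precursors themselves split. Of 12 tested precursors cut at basic residues 4 rose and 5 fell by both limits, against 11.6% and 11.8% of all tested genes. Those with the highest log2 fold changes were IGF2 (2.99), INS (2.23) and the amyloid precursor IAPP (1.87), and CHGB (1.25) also rose. The lower ones were neuropeptide Y (NPY, -1.46), GCG (-1.30), SST (-0.64), UCN3 (-0.63) and VGF (-0.62). Within batch A these were at -2.47, -2.36, -1.24, -0.14 and -0.33, and within batch B at -0.96, -0.77, -0.35, -0.88 and -0.76, in the same order. SST in batch B, and UCN3 and VGF in batch A, remained under the fold limit. The confidence interval of UCN3 in batch A, from -0.51 to 0.24, included no change, so its fall rests on batch B. IGF2, INS and IAPP were named by size, and CHGB and the lower ones were named after their values were seen. The response differed between batches for 6 of the 12 by the interaction test (GCG, SST, UCN3, NPY, SCG2 and NUCB2), against 4.21% of all tested genes. It also differed for 3 genes of all the other lists together.

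**Figure D4:**
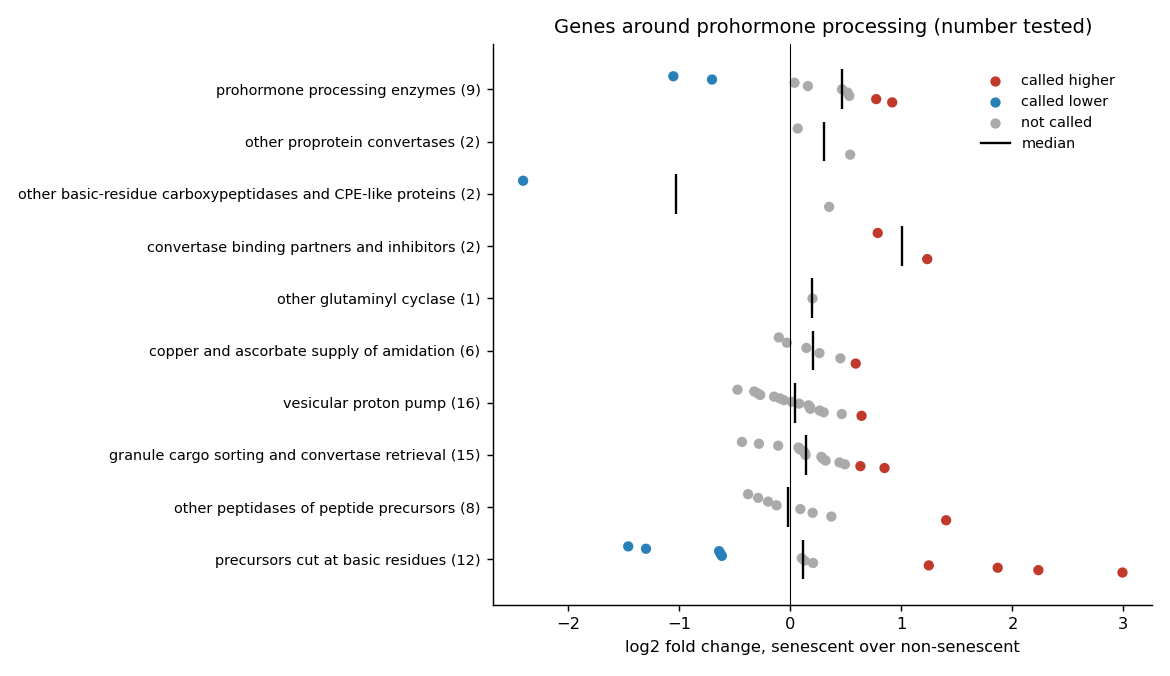
Log2 fold change of senescent over non-senescent cells for the 9 processing enzymes and the tested genes of the 9 lists around them, 1 point per gene, red where called higher, blue where called lower and grey where not called, with the median of each list as a black line and the number tested in brackets. The 16 proton pump subunits lie between -0.48 and 0.64, while the precursors spread from -1.46 to 2.99.

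The genes whose pattern over the 12 samples was most like that of a called enzyme were found by the root mean square difference of batch-centred log2 values, over 7192 genes with a mean of at least 100. For CPE they were ALAS1, the first enzyme of heme synthesis (0.08), SCG5 (0.09) and the lysosomal enzyme FUCA1 (0.10). For PCSK1 they were the fatty acid desaturase FADS1 (0.15), the condensin subunit SMC4 (0.17) and HYLS1 (0.18). For PAM the nearest were RNF128 (0.19), DIP2C (0.20) and CPEB4 (0.22). PCSK5 had no gene as close, with SRRT (0.30), PPAT (0.31) and CCDC137 (0.31).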

How the data were processed

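RNA of 12 EndoC-βH3 samples was profiled by CEL-seq, and groups and replicate names came from the labels. As the study's methods state, reads were trimmed with Cutadapt and the authors quantified them with Salmon 0.13.1 on GRCh38. The transcript annotation and the use of molecular identifiers are not given in the sources used here, so the floors cover counting error only. The confidence intervals come from the limma fits and measure the spread between these samples, which may be technical. The deposited signal is the read number per gene divided by 1 DESeq2 size factor per sample. The deposited log2 fold changes, their test statistic (a score) and p-values are the authors' own DESeq2 comparison and were not used. All non-zero deposited values gave whole reads (100% of 196021, within 0.01 reads), and 22707 genes had reads.

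Values were analysed as log2(normalised read count + 1), which understates changes of low genes, for 13847 genes with a mean of at least 5. limma 3.58.1 in R 4.3.3 was fitted with intensity trend, batch and group. Named genes were the 9 enzymes, PCSK1N, SCG5, INS, the label checks, up to 3 called genes of each list by absolute change, all genes of lists of up to 5, and the 3 genes most like each called enzyme. The enzymes, lists and tests were chosen with earlier results of these data known. The 7 ratios were compared by two-sided exact permutation within batch. Alternatives varied the pseudocount, filter, scaling, batch term, batches, fold limit, trend, single libraries and tool. On the recovered reads, edgeR 4.0.16 called 3238 genes and DESeq2 1.42.0 called 3223, against 3237 with limma. Procedures were tested on simulated data. No samples were near-duplicates (chi-square per degree of freedom 4.28 to 8.05). Positions came from GENCODE v44, promoters from RefSeq (all 9 enzymes matched). No sequences of the proteins were used here, and 1 listed gene is not reported here.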

Additional observations from a re-analysis of the deposited data

Results flagged for a closer look

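The difference of the response between batches (batch B minus batch A, log2 scale) passed the interaction test of limma for PCSK1 (0.74), CPE (0.75), PAM (1.60) and SCG5 (0.66). PAM alone of these genes had opposite signs in the batches, and for PCSK1 the fall was smaller in batch B. CPE and SCG5, whose values were also among the most alike, both rose more in batch B. Culture and library preparation cannot be told apart as sources of these differences.

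A sample stood apart from the other 3 of its group in batch B, by the gap to its neighbour as a share of the log2 range, in 4 groups. The 72 groups tested held each group both as all 6 samples of both batches and as the 4 of batch B. Chance alone gives about 1 in 20 per group. All flagged groups were of batch B, so their share among those was higher than 4 of 72. They were PCSK2 in the non-senescent sample B4 (0.862), CPE in the senescent sample B4 (0.929), PCSK1 relative to INS in the non-senescent sample B3 (0.881) and SCG5 relative to PCSK2 in the non-senescent sample B4 (0.832). The non-senescent sample B4 also held the highest PCSK5 and the lowest PCSK6 value among the non-senescent samples of batch B. The read numbers behind its PCSK2 and PCSK6 values were 19170 and 6.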

How the results depend on the processing

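The same 4 enzymes (PCSK1, CPE, PAM and PCSK5) were called with pseudocounts of 0.5 and 8, with no filter or a mean of at least 20, with TMM, upper quartile and same-total scaling, without the intensity trend, with edgeR, with DESeq2 and in batch B alone. Same replicate numbers gave no sign of pairing (correlations of -0.0508 to 0.0164, with 0 of 6 closest to their own number). The values were centred within group and batch, so the 2 samples per group of batch A could only give the same correlation. Low correlations do not show that pairing was absent. With a replicate block 4 enzymes and 3211 genes were called, against 3237. The SCG5/PCSK2 ratio lost its call under this block (0.26, adjusted p = 0.125). With no batch term 1 enzyme was called (PAM), in batch A alone 1 (PCSK1) and with no fold limit 7, when 34 pathway genes passed in place of 17. Over the libraries left out in turn, 4 to 5 enzymes and 14 to 18 pathway genes were called, 2 to 3 enzymes passed the interaction test and 7 to 8 differed between batches in non-senescent cells. The log2 changes of uncalled genes reversed for QPCT with same-total scaling (-0.070), in batch A alone (-0.013) and without the senescent sample B2 (-0.0012, range to 0.091), and for PCSK6 in batch A alone (-0.30) and without the non-senescent sample B4 (-0.076, range to 0.25). PAM was at -0.15 in batch A alone. Same-total scaling moved the median of all genes from 0.01 to -0.09 and the calls to 1225 higher of 3317, from 1605 of 3237, which leaves the direction of the 4 called enzymes. With labels exchanged across batches, 3 ratios lost their call: PCSK2/INS (-1.70, adjusted p = 0.0939), FURIN/PCSK1 (1.57, 0.265) and SCG5/PCSK2 (0.26, 0.565). In batch A alone no ratio could pass (6 arrangements, adjusted p = 0.333), with log2 differences of -2.05 for PCSK1/PCSK2, -4.09 for PCSK1/INS, -2.04 for PCSK2/INS, -2.27 for CPE/INS, 2.69 for PCSK1N/PCSK1, -0.15 for SCG5/PCSK2 and 1.62 for FURIN/PCSK1. With libraries left out in turn SCG5/PCSK2 ranged from 0.19 to 0.32 and the other ratios kept their call. The cause of these changes was not tested. Depth limits FURIN and PCSK6, with as few as 8 and 6 reads in a library.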
